A study of Columba livia with 9 samples.

Results

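Among the 19129 lncRNAs listed for the pigeon bursa of Fabricius (BF), 5 took up between 28.1% and 47.9% of all TPM of a library. These are G17924, G37514, G37516, G4547 and G37515, chosen by the highest mean TPM over the 9 libraries, so their high level is the rule itself and not a result. RNA of 9 female White-King pigeon squabs was sequenced, 3 libraries at each of 3 ages. The ages were 1D (newly hatched, 1 day), 13D (age of 13 days) and 26D (age of 26 days), and each library came from a different squab. The labels name no treatment and no other difference between the groups, and all squabs shared strain, sex and tissue. TPM, the unit of the tables, is reads divided by transcript length, scaled to a fixed sum over the library. The values of the lncRNAs and the 13072 listed mRNAs together therefore come to nearly the same sum in every library. A share of TPM is not the same share of reads, and the lengths of the 5 were not available.

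The BF is the organ of birds in which B lymphocytes proliferate and diversify their antibody genes within epithelial follicles before they seed the rest of the body. Long non-coding RNAs are transcripts longer than a set minimum that carry no clear open reading frame, and most are present at far lower levels than mRNAs. All 5 carry numbers from the transcript assembly made for this series rather than names of annotated genes, and no sequence, position or known function is given for them in the sources used here. Whether any of them comes from the mitochondrial genome or from a ribosomal RNA gene was therefore not tested, and lncRNA is the class the tables give them. Because TPM has a fixed sum, a transcript that takes a large share of a library lowers the TPM of every other transcript, whatever happens to the amount of RNA of each.

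In these libraries, 13 of 16 B lineage markers (among them CD79B, a chain of the B cell receptor complex, and PAX5, the factor that keeps B cell identity) were listed, and none was at 0 in any stage. Their summed TPM was 1807 to 2223 at 1D, 2877 to 4144 at 13D and 2220 to 3834 at 26D. Markers of other cells were present too, with extracellular matrix genes (15 of 15 listed) summing to 1180 to 3105 TPM at 1D, 349 to 680 at 13D and 147 to 627 at 26D. The 26D replicate 1 library was the lowest in its median over the 10027 mRNAs above 0.5 TPM in all 9 libraries, with 5.95 TPM against 10.8 to 19.9 in the other 8. In bulk RNA, fewer cells of a type and less RNA per cell cannot be told apart.

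G17924 ranked first of all transcripts, mRNAs included, in each of the 9 libraries. Its TPM at 1D was 137411, 265602 and 232446 in replicates 1, 2 and 3, at 13D it was 152466, 181832 and 287330, and at 26D it was 388850, 304255 and 284796. The 26D libraries were all above the 1D libraries, while 13D replicate 3 lay inside the 26D range. As a share of all TPM, G17924 took 21.3% ± 6.68 (SD, n = 3) at 1D, 20.8% ± 7.10 (SD, n = 3) at 13D and 32.7% ± 5.51 (SD, n = 3) at 26D, with single libraries from 13.9% to 39.0%. It stood 16.7 to 37.3 times above the highest mRNA of the same library. In 26D replicate 1 its TPM was reached only by adding up the 2132 most abundant mRNAs, and in 13D replicate 1 by adding up 52.

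G37514 had TPM of 100423, 64880 and 72704 at 1D, 84515, 51318 and 72659 at 13D, and 37176, 66328 and 79922 at 26D. It was the next most abundant transcript in every library but 26D replicate 1, where it ranked below G4547, and the 3 stages overlapped. Its share was 7.99% ± 1.89 (SD, n = 3) at 1D, 6.99% ± 1.69 (SD, n = 3) at 13D and 6.14% ± 2.20 (SD, n = 3) at 26D.

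G37515, whose number follows directly on G37514, had TPM of 27678, 14464 and 18274 at 1D, 21609, 10625 and 20826 at 13D, and 7315, 13747 and 19256 at 26D. Its lowest library was again 26D replicate 1 and its highest again 1D replicate 1, and the stages overlapped. Its share was 2.03% ± 0.688 (SD, n = 3), 1.78% ± 0.616 (SD, n = 3) and 1.35% ± 0.601 (SD, n = 3) at the 3 ages.

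G37516 was the most uneven of the 5 on the deposited scale. Its TPM was 47965, 13928 and 15426 at 1D, 42296, 26881 and 13253 at 13D, and 6482, 16207 and 15840 at 26D. At 1D and at 13D replicate 1 stood far above the remaining libraries of the stage except for 13D replicate 2, which lay between, and 26D replicate 1 was the lowest of all. The highest of the 9 values was 7.40 times the lowest, against 2.83 for G17924, 2.70 for G37514, 3.78 for G37515 and 4.46 for G4547. Its share was 2.598% ± 1.94 (SD, n = 3) at 1D, 2.77% ± 1.47 (SD, n = 3) at 13D and 1.29% ± 0.554 (SD, n = 3) at 26D.

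G4547 had TPM of 9900, 27480 and 22527 at 1D, 8767, 8426 and 22207 at 13D, and 37587, 29513 and 24016 at 26D. The libraries fell into a low set of 3 (1D replicate 1 and 13D replicates 1 and 2, 8426 to 9900 TPM) and a high set of 6 (22207 to 37587 TPM) with nothing between, and the same 3 libraries were the highest in G37516. The study's sequencing summary gives these 3 libraries the highest shares of mapped reads and of high-quality bases in the series. The lowest of the 3 was only slightly above 26D replicate 2 in mapped reads and above 26D replicate 1 in high-quality bases. The part of library quality in the split was not tested. All 26D libraries were above all 13D libraries. Its share was 2.01% ± 0.911 (SD, n = 3), 1.32% ± 0.788 (SD, n = 3) and 3.05% ± 0.682 (SD, n = 3) at 1D, 13D and 26D.

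**Figure D1:**
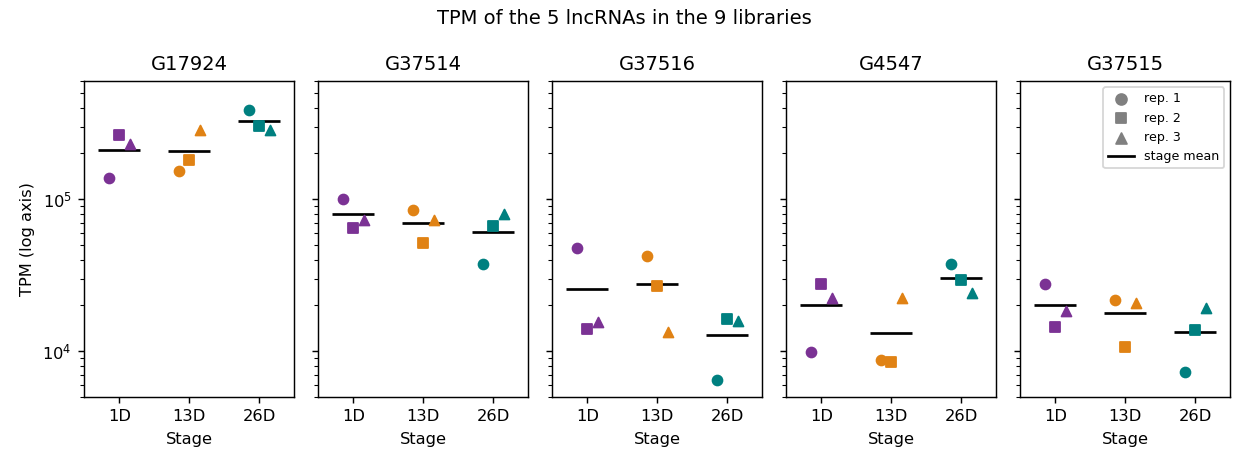
TPM of each of the 5 lncRNAs (vertical log axis) at 1D, 13D and 26D, where each mark is a library with its shape giving the replicate number and the line is the stage mean of 3 libraries. G17924 lay between 137411 and 388850 TPM, and the 3 stages overlapped for G37514, G37516 and G37515.

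The order of the lncRNAs below G37514 was not fixed. Mean TPM over the 9 libraries was 22031 ± 14174 (SD, n = 9) for G37516, 21158 ± 10206 (SD, n = 9) for G4547 and 17088 ± 6205 (SD, n = 9) for G37515. Within a library G37516 was 0.636 to 2.53 times G37515. G37516 was above G4547 in 3 of the 9 libraries only. Just outside the rule stood G4548 with a mean of 12069 TPM against 17088 for G37515, the last inside, and the next in order was G38388 with 6460. The most abundant mRNA, LOC102093168, had a mean of 8398 TPM, and the most abundant with a gene name was EEF1A1, which delivers aminoacyl-tRNA to the ribosome, with 6617 TPM (4345 to 10461). In 26D replicate 1, 11 mRNAs exceeded the lowest of the 5 lncRNAs, in the 13D libraries 1 or 2 did, and in the other 5 libraries none did.

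The first comparison was of the summed share of the 5 lncRNAs between ages. It was 32.6%, 38.9% and 36.4% at 1D, 31.2%, 28.1% and 41.8% at 13D, and 47.9%, 43.2% and 42.6% at 26D. Every 26D library was above every library of both younger ages, and the 13D libraries spread on either side of the 1D libraries. The 26D mean exceeded the 1D mean by 8.59 percentage points (exact permutation p = 0.1, two-sided) and the 13D mean by 10.8 points (exact permutation p = 0.1), where 0.1 is the smallest p that 3 against 3 libraries allow. The 13D mean was lower than the 1D mean by a margin within the spread (-2.25 points, exact permutation p = 0.7), and the elder squabs together (13D and 26D) differed from 1D by 3.17 points (exact permutation p = 0.548; smallest possible 0.0119). Without 26D replicate 1, the excess of 26D was 6.93 points over 1D and 9.18 points over 13D. As a share of lncRNA TPM alone, 26D exceeded 1D by 9.65 points without overlap, but the excess over 13D was 6.87 points with libraries that overlapped (exact permutation p = 0.3).

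G17924 carried the excess of 26D over 1D, since its own share was 11.4 points higher there while the other 4 lncRNAs as a share of the TPM outside G17924 were lower (-0.997 points, exact permutation p = 0.7). The 26D share of G17924 was also 11.9 points above that of 13D, with libraries that overlapped (exact permutation p = 0.2). G4547 was the other lncRNA with a higher mean share at 26D, by 1.04 points over 1D and 1.73 points over 13D. G37514, G37516 and G37515 had lower mean shares at 26D than at 1D (-1.85, -1.31 and -0.680 points), each with overlapping libraries.

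**Figure D2:**
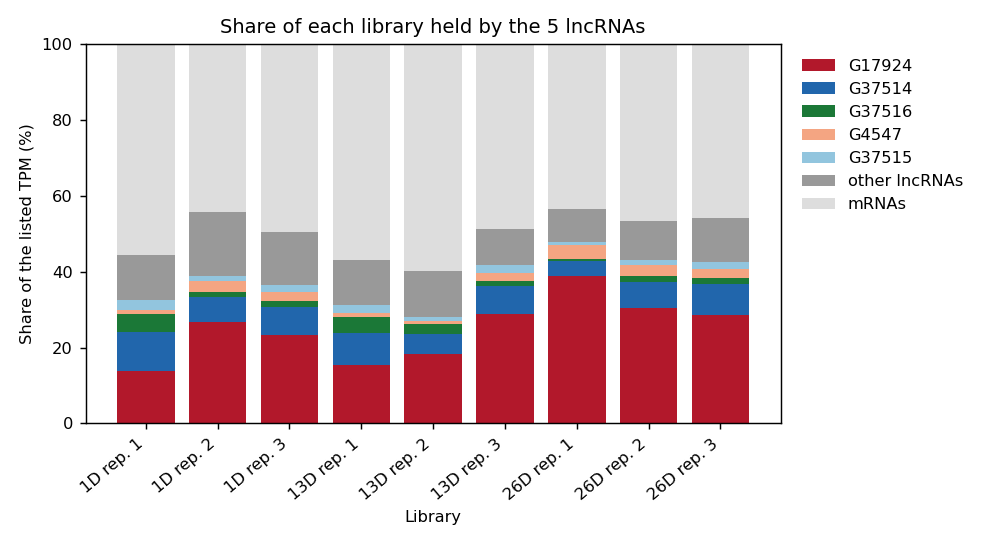
Share of all TPM (percent, vertical axis from 0) taken by each of the 5 lncRNAs in each of the 9 libraries (horizontal axis), stacked. The other lncRNAs and the mRNAs are stacked above the 5 in grey and light grey. The summed share was lowest (28.1%) in 13D replicate 2 and highest (47.9%) in 26D replicate 1, and G17924 made up 42.5% to 81.4% of it.

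The rest of the library shared what remained. mRNAs took 43.5% to 59.7% of TPM and the 19124 other lncRNAs 8.62% to 16.9%, so the 5 made up 69.7% to 84.7% of all lncRNA TPM. The mRNA share was lower at 26D than at 13D without overlap (-9.78 points, exact permutation p = 0.1). That of the other lncRNAs was lower at 26D than at 1D without overlap (-4.11 points, exact permutation p = 0.1).

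DE across all lncRNAs was tested with limma on log2(TPM + 0.1). The thresholds were an adjusted p below 0.05 and an absolute log2 fold change over 1. In this fit 0 of the 5 passed in any of the 3 comparisons between single stages. Neither did any other lncRNA (0% of 19129), although some alternatives called lncRNAs outside the 5. At an unadjusted p below 0.05 limma again picked 0 of the 5, against 10.4%, 16.7% and 5.73% of all lncRNAs in 13D vs. 1D, 26D vs. 1D and 26D vs. 13D respectively. In the comparison of 1D with the elder squabs together, 1.21% of all lncRNAs were called and 14.4% had an unadjusted p below 0.05, and again 0 of the 5 were among either by limma. Some alternatives put members under an unadjusted p of 0.05 in limma, with a lowest adjusted p of 0.219. In 26D vs. 13D they were G4547 (0.000726), G17924 (0.00949) and G37516 (0.012) where only lncRNAs above 0.1 TPM in at least 3 libraries were fitted, and G4547 also in the fit of all 9 libraries (0.00642), with G37516 (0.0478), without the dependence of spread on abundance (0.0334), without 13D replicate 3 (0.0241) and, with G17924 (0.0382), at a pseudocount of 1 (0.0155). In 26D vs. 1D they were G17924 (0.0147) and G37516 (0.0252) under the replicate block, and G17924 at a pseudocount of 1 (0.0143). Over all lncRNAs, 1282 of 17534 had a limma unadjusted p below 0.05 in 26D vs. 13D with that filter. Of 19129, 1669 did in the fit of all 9 libraries and 1318 without the dependence of spread on abundance. Without 13D replicate 3 the number was 2853, and at a pseudocount of 1 it was 1145. In 26D vs. 1D it was 2189 under the replicate block and 3184 at a pseudocount of 1.

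In 13D vs. 1D the log2 fold changes ran from -0.63 for G4547 (SE 0.678, limma adjusted p = 0.769) to 0.18 for G37516 (SE 0.751, limma adjusted p = 0.949). That of G4547 was between -1.09 and -0.34 with a library left out. The log2 fold change of G17924 was -0.03 (SE 0.813). No member had libraries that did not overlap between these stages, which 13.8% of all lncRNAs had.

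In 26D vs. 1D the signs split. G17924 had a log2 fold change of 0.66 (SE 0.445, limma adjusted p = 0.459) and G4547 of 0.71 (SE 0.497, limma adjusted p = 0.476). G37514 was at -0.42 (SE 0.464), G37515 at -0.64 (SE 0.5003) and G37516 at -0.88 (SE 0.579), with limma adjusted p-values of 0.6251, 0.513 and 0.453. With a library left out the values kept their signs but not their size, from 0.38 to 0.85 for G17924, 0.26 to 1.00 for G4547, -0.65 to -0.10 for G37514, -0.95 to -0.25 for G37515 and -1.20 to -0.31 for G37516. The median over all lncRNAs was -0.65 and over all mRNAs -0.52, so G17924 and G4547 lay well above the middle of the table, G37515 close to it and G37516 below it. G17924 was higher at 26D without overlap, as were 1.42% of all lncRNAs, while 21.3% were lower without overlap and none of the 5 was among these.

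In 26D vs. 13D, G4547 had the largest log2 fold change of the 5 at 1.34 (SE 0.613, limma unadjusted p = 0.0679, adjusted p = 0.501), and its libraries did not overlap, as for 0.523% of all lncRNAs in that direction. G17924 was at 0.69 (SE 0.785, limma adjusted p = 0.589). G37514 was at -0.23, G37515 at -0.43 and G37516 at -1.06 (SE 0.694), all 3 with overlapping libraries, and 11.3% of all lncRNAs were lower at 26D without overlap. The medians over all lncRNAs and all mRNAs were -0.72 and -0.53.

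Against 1D, the elder squabs together gave log2 fold changes from -0.42 (G37515, SE 0.361) to 0.32 (G17924, SE 0.301), with limma adjusted p-values of 0.710 to 0.992. Libraries of all 5 overlapped in this comparison, in which 7.55% of all lncRNAs did not overlap. Few transcripts share the abundance of G17924, and the spread that limma expected at its level in 26D vs. 13D was an SD of 1.48 on the log2 scale against 0.373 in its own libraries. With an expected spread that did not depend on abundance, its SE was 0.360 and the limma adjusted p was 0.476.

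The choice of denominator set the sign for part of the group. Taken relative to the TPM outside the 5, G17924 was higher at 26D than at 1D by 0.87 on the log2 scale, without overlap. It was higher at 26D than at 13D by 0.94, also without overlap (exact permutation p = 0.1 for each comparison). The separation from 13D was narrow. With the TPM outside the 5 set to 1e+06, G17924 was at 498301 in 26D replicate 3 and at 496146 in 13D replicate 3. On deposited TPM the order of these libraries was reversed (284796 against 287330). Relative to the TPM outside the 5, G4547 was higher at 26D than at 13D by 1.59, without overlap (exact permutation p = 0.1). On that scale 2% of all lncRNAs were higher at 26D than at 1D without overlap and 0.847% higher at 26D than at 13D. Scaled instead by median-of-ratios factors over mRNAs, all 5 overlapped in every comparison, and the 26D vs. 13D values became 1.33 for G17924 and 1.98 for G4547. Of all lncRNAs, 23.6% did not overlap under these factors between 1D and 13D, 22.4% between 1D and 26D, 10.2% between 13D and 26D and 11.9% between 1D and the elder squabs. Under the same factors G37514 turned to 0.12 in 26D vs. 1D and to 0.41 in 26D vs. 13D, and G37515 turned to 0.20 in 26D vs. 13D.

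**Figure D3:**
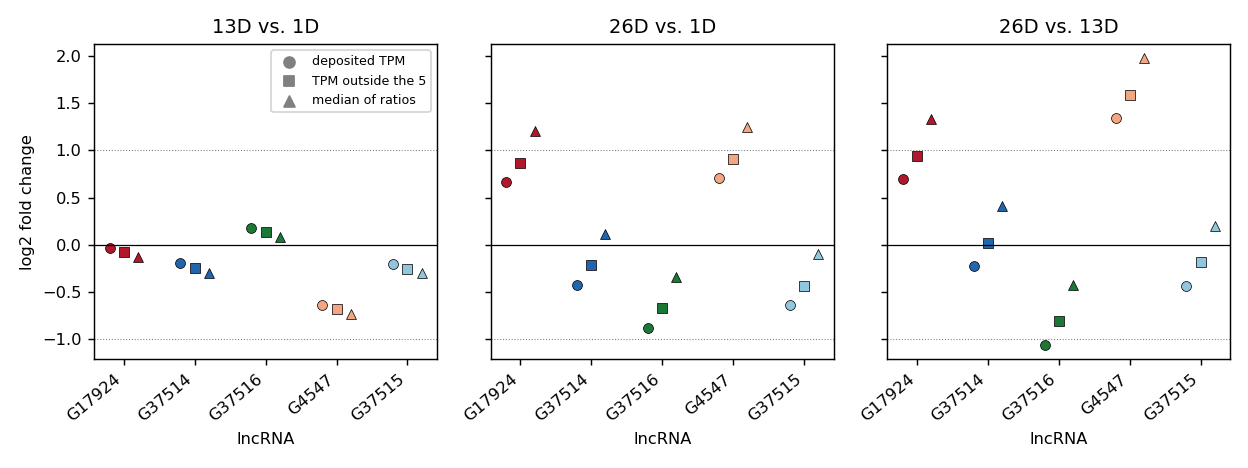
log2 fold change (vertical axis) of each of the 5 lncRNAs in 13D vs. 1D, 26D vs. 1D and 26D vs. 13D under 3 scalings, with circles for deposited TPM, squares for TPM outside the 5 and triangles for median-of-ratios factors, and dotted lines at 1 and -1. G17924 and G4547 were above 0 in both 26D comparisons under each scaling shown. G37514 changed sign in both under median-of-ratios and in 26D vs. 13D also on TPM outside the 5. G37515 changed sign in 26D vs. 13D under median-of-ratios.

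Spread between squabs of the same age differed among the 5. The within-stage SD of log2 TPM was 0.42 for G17924 and 0.44 for G37514, and only 3.53% and 4.23% of lncRNAs present in all 9 libraries were steadier. It was 0.59 for G37515, 0.67 for G4547 and 0.87 for G37516, where the median lncRNA had 0.84. Under median-of-ratios scaling this order turned, with 0.84 for G17924 and 1.08 for G4547 against 0.37 for G37514 and 0.51 for G37516. Under that scaling 84.5% of lncRNAs were steadier than G17924, while relative to the TPM outside the 5 its SD was 0.52 and 13.3% were steadier. The lncRNAs compared had library medians of only 0.668 to 3.45 TPM, and the part of abundance in these ranks was not tested.

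To ask how the 5 relate to each other, log2 levels relative to the TPM outside them were correlated over the 9 squabs, with exact permutation p-values adjusted over 10 pairs. G37514 and G37515 had r = 0.97 (exact permutation p = 1.02e-04, adjusted p = 0.00102) and rho = 0.967 (exact permutation, adjusted p = 0.00165). Without 13D replicate 2 and 26D replicate 1 their r was 0.88, and with stage means removed it was 0.99 (exact permutation within stages, adjusted p = 0.0309). Within a library the level of G37514 was 3.49 to 5.08 times that of G37515, a range of 1.46-fold while each alone ranged over at least 2.70-fold.

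G17924 and G37516 went in opposite directions, with r = -0.92 (exact permutation p = 5.59e-04, adjusted p = 0.00186). By ranks the relation was rho = -0.733 and did not pass (exact permutation, adjusted p = 0.104). It was r = -0.81 without 1D replicate 1 and 13D replicate 1, and r = -0.94 with stage means removed (exact permutation within stages, adjusted p = 0.0309). The ratio of G17924 to G37516 was 2.86 in 1D replicate 1, its lowest, and 60.0 in 26D replicate 1, its highest.

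Over the 9 libraries G4547 and G17924 had r = 0.96 (exact permutation, adjusted p = 0.00186) and rho = 0.883 (exact permutation, adjusted p = 0.0154), and r = 0.98 with stage means removed. G4547 and G37516 had r = -0.87 (exact permutation, adjusted p = 0.00524), with rho = -0.683 that did not pass (exact permutation, adjusted p = 0.126). With stage means removed their r was -0.88, which did not pass either (exact permutation within stages, adjusted p = 0.0694). The gap in G4547 separates 3 libraries from 6, so these values hold the distance between both sets, and the pairs were read again within the 6, a choice made after the values were seen. There G4547 and G17924 had r = 0.90 and rho = 0.829 (exact permutation p = 0.0153, adjusted p = 0.0648 for r), and G4547 and G37515 had r = -0.91 (exact permutation p = 0.0194, adjusted p = 0.0648). Over the same 6 libraries G37514 and G37515 had r = 0.95 (exact permutation p = 0.0111, adjusted p = 0.0648), while G17924 and G37516 had r = -0.69 with rho = -0.0857 (exact permutation p = 0.196 for r). No pair passed the adjusted threshold over these 6 libraries, G37514 and G37515 included. In the 3 low libraries G17924 was 13.9, 17.4 and 21.6 times G4547, and in the 6 others 9.67 to 12.9 times. With a library left out, r of G17924 and G37516 was between -0.95 and -0.88. The remaining pairs without G4547 had r from -0.35 to 0.53 over the 9 libraries, and none passed (exact permutation, adjusted p from 0.250 to 0.584).

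**Figure D4:**
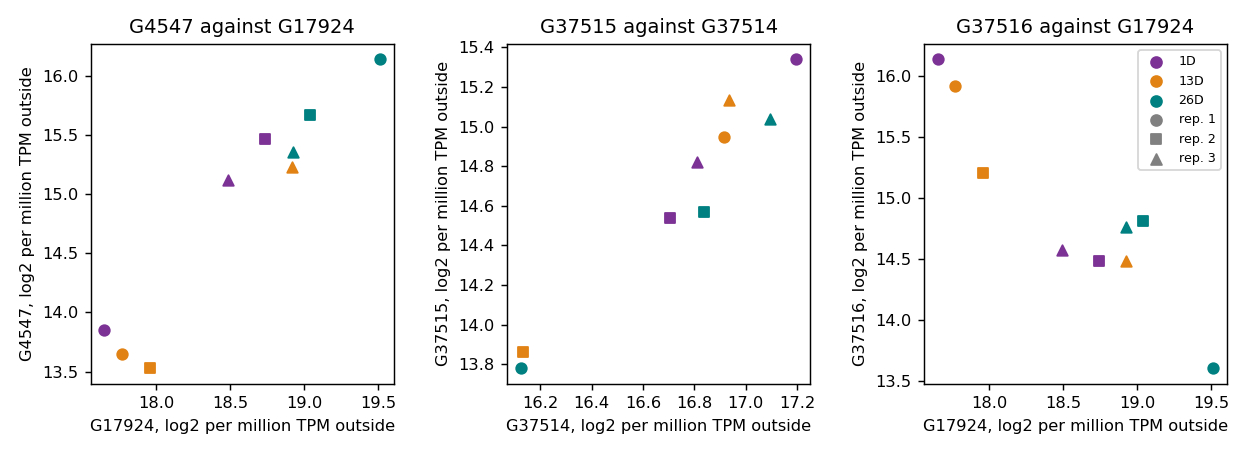
log2 level relative to the TPM outside the 5 lncRNAs for G4547 against G17924, G37516 against G17924 and G37515 against G37514, where each mark is a library, its colour the stage and its shape the replicate number. 3 libraries with low G17924 stand apart at the low end of G4547 and are the highest in G37516, and G37515 lies along a line with G37514 (r = 0.97).

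Assembly numbers that follow each other were compared, although what their order stands for is not stated in the sources used here. G4547 stayed within 1.38 to 1.86 times G4548, the transcript just outside the rule, whose TPM ran from 5382 to 20438. Over the 6 libraries above the gap their r was 0.99 (exact permutation p = 0.00139, the smallest that 6 libraries allow). G37516 was 27.4 to 47.1 times G37517, which had 138 to 1751 TPM, with r = 0.99 over 9 libraries. G37515 and G37516, numbered in a row as well, had r = 0.53, and 79.7% of the 4965 consecutively numbered pairs had an r at least as high. An r as high as that of G37514 and G37515 was reached by 7.23% of them. Over those 4965 pairs the median r was 0.82 and 32.5% had at least 0.9, against a median of 0.49 and 3.93% over all pairs of lncRNAs present in the 9 libraries.

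The 5 were also compared with the library as a whole, and G17924, G37516 and G4547 moved against or with it. The median mRNA, rescaled to the TPM outside the 5, was at 29.8, 18.8 and 23.3 in the 1D libraries, 25.7, 25.0 and 18.6 at 13D, and 11.4, 21.0 and 21.6 at 26D. G17924 was low where this median was high (r = -0.87, exact permutation adjusted p = 8.47e-04, and rho = -0.867, exact permutation adjusted p = 0.0113). Adjustment was over 5 correlations chosen after the values were seen. G37516 was high where this median was high (r = 0.90, exact permutation adjusted p = 7.72e-04, and rho = 0.933, exact permutation adjusted p = 0.00375). G4547 was low where it was high (r = -0.80, exact permutation adjusted p = 0.00494, and rho = -0.817, exact permutation adjusted p = 0.0179). For G17924 and G37516 the values were -0.83 and 0.80 without 1D replicate 1 and 26D replicate 1, and -0.84 and 0.88 with stage means removed. Over the 6 libraries above the gap, G17924 had r = -0.86, G37516 0.95 and G4547 -0.85, and none passed (exact permutation, adjusted p = 0.0833 for each). For G37514 and G37515 r was 0.55 and 0.57 (exact permutation, adjusted p = 0.132 for each) and changed sign to -0.35 and -0.33 without 1D replicate 1 and 26D replicate 1.

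Because the 5 hold so much of the fixed sum, the level of every mRNA depended on whether they were counted in it. With them in the total, the median of the 10027 mRNAs was 19.9, 11.4 and 14.7 TPM at 1D, 17.6, 17.8 and 10.8 at 13D, and 5.95, 11.9 and 12.3 at 26D. The highest library median was 3.34 times the lowest as deposited and 2.603 times the lowest outside the 5. For the lncRNAs present in all libraries the same ratio went from 5.16 to 3.82, so the libraries differed in their medians also without the 5.

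**Figure D5:**
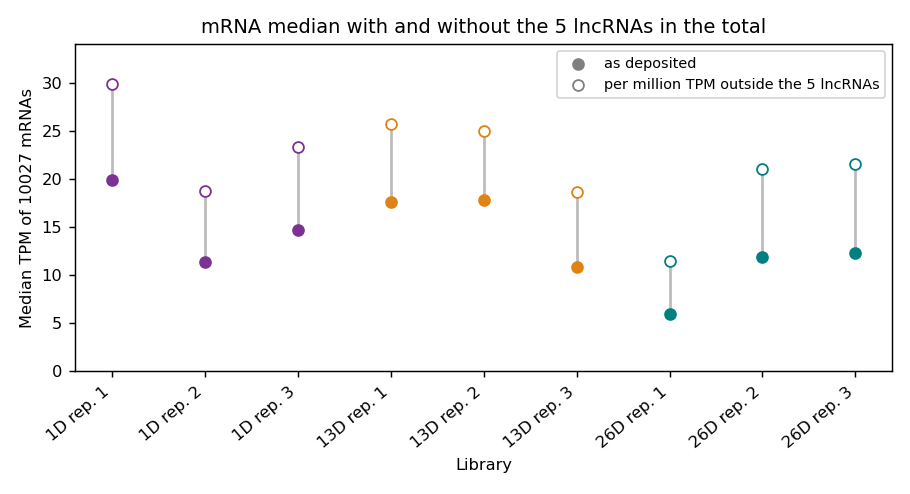
Median TPM of 10027 mRNAs (vertical axis) in each library (horizontal axis), filled as deposited and open relative to the TPM outside the 5 lncRNAs, joined by a line within a library. Leaving out the 5 raised each median, and 26D replicate 1 was the lowest both ways, at 5.95 and 11.4.

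Counts of DE mRNAs moved with the denominator in some of the comparisons. In 26D vs. 1D limma called 1709 mRNAs (13.1% of 13072) on deposited TPM, 1279 on TPM outside the 5 and 999 under median-of-ratios factors, and the median log2 fold change of mRNAs went from -0.52 to -0.38 and -0.08. In 13D vs. 1D the counts were 1068 (8.17%), 1040 and 1352, with medians of 0.00, -0.04 and -0.08. In 26D vs. 13D a single mRNA (0.00765%) was called on deposited TPM and on TPM outside the 5, and 0 under median-of-ratios factors, where 883 had a limma unadjusted p below 0.05. The median in 26D vs. 13D moved from -0.53 to -0.34 and -0.01. The weight that limma gave to the expected spread also differed between the scalings, and its part in the counts was not tested. Counts in 26D vs. 1D also turned on single libraries, with 612 called without 26D replicate 1, 571 without 26D replicate 2 and 670 without 1D replicate 1. For 13D vs. 1D they were 575 without 1D replicate 1 and 443, 412 and 507 without 13D replicate 1, 2 or 3.

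Transcripts most like each of the 5 were named by the highest r of log2 level, relative to the TPM outside the 5, over the 9 libraries, as a description. The points share each library's median, which G37516 tracked directly and G17924 and G4547 inversely. For G17924 the closest mRNAs were MYCBP, a partner of the MYC oncoprotein in human (r = 0.96), and ATP5F1E, the epsilon subunit of ATP synthase (r = 0.95, mean 965 TPM). For G4547 they were NDUFA4, which associates with cytochrome c oxidase in human, and ATP5MK, a small membrane subunit of ATP synthase (r = 0.97 for each, over libraries that include the gap). With G37516 the closest were SLC25A3, the mitochondrial phosphate carrier, and BLMH, the cytosolic peptidase bleomycin hydrolase (r = 0.99 for each), and G37517 and G6884 among the lncRNAs (also 0.99).

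G37514 was closest to PLS3, an actin-bundling plastin, and SRI, the calcium-binding protein sorcin (r = 0.94 and 0.93). For G37515 the mRNAs were GSDME, a pore-forming gasdermin, and ESD, an esterase (r = 0.92 and 0.91), and the lncRNA G8529 was among the closest of both (r = 0.94 with G37514 and 0.98 with G37515) at a mean of only 1.43 TPM. G36355 led for G17924 (r = 0.97) at 4.02 TPM. Apart from the 5 themselves and G4548, the closest transcripts had mean levels of 1.43 TPM (G8529) to 965 TPM (ATP5F1E).

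Set against all 10027 mRNAs, the 5 fell on both sides of 0. The median r was -0.62 for G17924 and -0.58 for G4547, with 9.29% and 9.12% of mRNAs above 0. It was 0.63 for G37516, 0.37 for G37514 and 0.38 for G37515, with 91.8%, 85.7% and 86.5% of mRNAs above 0. An r of at least 0.9 was reached by 548 mRNAs with G37516 and by 14 with G17924, while 229 had an r of -0.9 or below with G17924.

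Cell type lists were read against these medians, and their part in the levels of the 5 was not tested. B lineage genes had a median r of -0.15 with G17924 and 0.24 with G37516 (13 of 16 genes above 0.5 TPM in all libraries), both closer to 0 than the median of all mRNAs. Myeloid genes (7 of 10) had 0.17 and 0.05, and the 3 of 11 T lineage genes that could be read had 0.11 and -0.05. Extracellular matrix genes (14 of 15) had -0.63 with G17924, close to the value of all mRNAs, and 0.51 with G37516. With G37514 and G37515 the smooth muscle genes (6 of 11, contractile proteins such as ACTA2) had 0.63 and 0.63, and the endothelial genes (6 of 9) 0.59 and 0.60. Extracellular matrix (0.53 and 0.58), myeloid (0.54 and 0.43) and epithelial genes (5 of 10, 0.47 and 0.51) were likewise above the 0.37 and 0.38 of all mRNAs. B lineage genes lay below these, with a median r of -0.11 with G37514 and -0.16 with G37515. Of the 13 B lineage genes, 3 and 2 had an r above 0. The T lineage genes were also below, at 0.16 and 0.23. Summed smooth muscle TPM was 406 to 888 at 1D, 79.3 to 196 at 13D and 28.9 to 230 at 26D, with the highest sums at 1D, while G37514 overlapped between all 3 stages. Proliferation genes (14 of 14) had -0.44 with G17924, -0.57 with G4547, 0.42 with G37516, 0.06 with G37514 and 0.13 with G37515. None of the erythroid markers (5 of 9 listed) or neuron and glia markers (8 of 10 listed) was above 0.5 TPM in all 9 libraries. Of the 13 mitochondrially encoded genes searched for, none was matched by symbol.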

How the data were processed

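According to the study's methods, ribosomal RNA was depleted, STAR 2.6.0c aligned the cleaned reads to Cliv_1.0, a pigeon assembly, transcripts were assembled with Cufflinks 2.1.1 and merged with TACO, and the authors computed TPM with Kallisto. The deposited tables hold these TPM values, 19129 lncRNAs above 0.1 TPM and 13072 mRNAs above 0.5 TPM in at least 1 library. They sum to 991214 to 997459 TPM per library, and TPM keeps no read counts of single transcripts, so no counting interval is given. Of the mRNA identifiers, 12387 matched a symbol in the RefSeq gene table.

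Stages were compared with limma 3.58.1 (R 4.3.3) on log2(TPM + 0.1) for lncRNAs and log2(TPM + 0.5) for mRNAs, with the spread allowed to depend on abundance, in the 6 libraries of each pair of stages and with Benjamini-Hochberg adjustment over all listed features. The methods tested pairs of stages at the same thresholds with a count model, and limma was used here because the tables hold no counts. Shares and correlations were tested by exact permutation (Python 3.11.15, 362880 orders of 9 libraries, 216 within stages), and the code was tested on simulated data. Replicate numbers were no block, since each library is a separate squab and same-numbered libraries did not deviate together (r from -0.229 to 0.288 over mRNAs). Alternatives were other pseudocounts (0.01 and 1), a filter on low values, 2 denominators without the most abundant lncRNAs, median-of-ratios factors, spread without dependence on abundance, a replicate block, a fit of all 9 libraries and leaving out each library.

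The named transcripts were the 5 lncRNAs, the next in abundance, the neighbours in number, the most abundant mRNAs and, for each of the 5, the 2 lncRNAs and 2 mRNAs with the highest r. The members and the marker lists were chosen with earlier results of these data known. G37517 and the library median were added after values were seen.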

Additional observations from a re-analysis of the deposited data

How the results depend on the processing

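None of the 5 lncRNAs was called in any of the alternatives run, the replicate block included (0 of 5 in each comparison under the block). Some of these fits left little room for a call. For G17924 in 26D vs. 13D the SE was 7.43 under median-of-ratios and 2.61 at a pseudocount of 0.01, against 0.785 in the main fit. The absence of a call there says little about its change. Over all lncRNAs the counts called were 0 in 26D vs. 1D but 435 of 17534 with the filter, 284 in the fit of all 9 libraries, 49 with the block and 6 under median-of-ratios. For 13D vs. 1D they were 122 with the filter, 83 in the fit of all 9 and 10 under median-of-ratios. They were 2 there on TPM outside the 5 and 2 without the dependence of spread on abundance. In 26D vs. 13D the fit of all 9 called 1. Of the choices that keep all libraries, only the scalings moved a log2 fold change of the 5 beyond rounding, and 55 of 60 such refits kept its direction. The exceptions were G37514 in 26D vs. 1D (0.12, median-of-ratios), G37514 in 26D vs. 13D (0.024 outside the 5, 0.0045 outside G17924 and 0.41 with median-of-ratios) and G37515 in 26D vs. 13D (0.20, median-of-ratios). Leaving out single libraries moved the 13D vs. 1D values over 0, from -0.32 to 0.16 for G17924, from -0.35 to 0.0076 for G37514, from -0.21 to 0.75 for G37516 and from -0.42 to 0.13 for G37515. It did the same for G37514 in 26D vs. 13D (-0.45 to 0.10) and, between 1D and the elder squabs, for G37516 (-0.67 to 0.22) and G4547 (-0.41 to 0.33). The summed share in 13D vs. 1D was 2.78 points higher at 13D as a share of lncRNA TPM only and ran from -6.31 to 0.545 points without single libraries. Without G17924, in the TPM outside it, the other 4 were at -0.997 points in 26D vs. 1D and -1.57 points between 1D and the elder squabs. Leaving out libraries gave 6.92 to 10.04 points for 26D vs. 1D, 8.04 to 14.9 for 26D vs. 13D and 1.42 to 5.37 for the elder squabs. Of the 10 correlations, 4 passed over 9 libraries, 4 to 5 with a library left out and 0 over the 6 libraries above the gap in G4547, where fewer libraries were tested. With stage means removed, that of G37516 and G4547 no longer passed (exact permutation within stages, adjusted p = 0.0694). Of the 5 with the library median, 3 passed over 9 libraries and 0 over those 6. Median-of-ratios scaling turned the sign of r for G17924 with G37514 (0.54) and G37515 (0.23), for G37514 with G37516 (-0.22) and G4547 (0.65), and for G37515 with G37516 (-0.0027) and G4547 (0.34). With a library left out r ran from -0.66 to 0.11 for G17924 and G37514, from -0.65 to 0.27 for G37514 and G4547, and from -0.71 to 0.14 for G37515 and G4547. The mRNAs called in 26D vs. 1D numbered 999 with median-of-ratios and 481 with the replicate block, and in 26D vs. 13D they were 34 with the filter, 0 with median-of-ratios and 14 with the replicate block. Leaving out libraries gave 412 to 1518 mRNAs in 13D vs. 1D, 571 to 2240 in 26D vs. 1D and 3 to 36 in 26D vs. 13D. The cause of these changes was not tested. The study lists the reads of each library, and the part of depth in these values was not tested.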

Other observations

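Further abundant lncRNAs outside the rule were uneven between squabs, and they are given as values chosen after they were seen. G38388 had 75.1, 29169 and 11315 TPM at 1D, 1596, 76.3 and 295 at 13D, and 2289, 638 and 12684 at 26D. G38387, numbered just before it, had 136, 22700 and 13270 at 1D, 1767, 161 and 253 at 13D, and 1634, 541 and 5947 at 26D. Both were highest in 1D replicate 2, 1D replicate 3 and 26D replicate 3. G19088 had its highest level, 11969 TPM, in 1D replicate 1, followed by 4053 and 3755 in 13D replicates 1 and 2, and 309 to 835 in the other 6, so its high libraries were those with low G4547.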
